A study of Mus musculus with 6 samples.

Results

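Clec12a, the inhibitory receptor for monosodium urate (MSU) crystals, and 7 other C-type lectin genes were read in bone-marrow-derived mouse macrophages, phagocytes grown from marrow. The 8 genes were taken by symbol from a table of 54532 genes: Clec12a, Clec7a, Clec4n, Clec4d, Clec4e, Clec5a, Clec10a and Clec2d. RNA sequencing gave 6 libraries, 3 of cells labelled Tet2 knockout and 3 of cells labelled wild-type, and the cells of both groups had been treated with MSU. The product of Tet2 oxidises 5-methylcytosine, a step in removing DNA methylation. The allele, the strain and age of the mice and the dose and time of MSU are not given in the sources used here. The labels do not tie the libraries to different animals or cultures, and the spread behind each p-value is that between these libraries, which may be technical. All 8 genes passed the filter on low counts and were among the 13175 genes tested.

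C-type lectin receptors of myeloid cells bind sugars, lipids and products of dead cells through a lectin-like domain outside the cell, and signal through tyrosines that Src-family kinases phosphorylate. Activating members recruit the kinase Syk, either through a single tyrosine motif in their own tail (Clec7a, also called Dectin-1) or through the adaptor Fcer1g (Clec4n or Dectin-2, Clec4d or MCL, Clec4e or Mincle) or Tyrobp (Clec5a or MDL-1), and Syk then acts through Card9, Bcl10 and Malt1 on NF-kappaB. Inhibitory members such as Clec12a carry an immunoreceptor tyrosine-based inhibitory motif (ITIM) that recruits the phosphatases Ptpn6 (SHP-1) and Ptpn11 (SHP-2), and Clec12a is known to restrain the response of neutrophils and other myeloid cells to urate crystals.

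Clec12a is inhibitory and Clec7a activating because of short tyrosine motifs in their tails, and the codons of these motifs are shown since the comparison sets the genes side by side for that reason. The stretches were read from GENCODE M21 transcripts (build GRCm38, that is mm10) and lie in coding exon 1, inside the first 40 codons. Capitals mark the codons of the motif. For Clec12a this is isoleucine, leucine, valine or serine, then any residue, the tyrosine (codon 7), any pair of residues and isoleucine, leucine or valine. For Clec7a (tyrosine at codon 15) and Clec10a (tyrosine at codon 3) it is a tyrosine, any pair of residues and a leucine.
Clec12a, chr6:129350427-129350456, plus strand: gaagaaATTGTTTATGCAAATCTCaaaatc
Clec7a, chr6:129472626-129472649, minus strand: gatggaTATACTCAATTAgacttc
Clec10a, chr11:70167944-70167967, plus strand: atgataTACGAAAACCTCcagaac

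Only Clec12a matched the ITIM pattern in its first 40 codons among the transcripts read, 1 for each of the 8 genes. Clec4n, Clec4d, Clec4e and Clec2d had 0 tyrosine codons in that stretch, and the 1 tyrosine codon of Clec5a stood in neither pattern. A match is a description of letters and was not tested for function.

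Total counts ran from 11997104 to 14481843 per library. Tet2 itself was slightly higher in the libraries labelled knockout, at 33.7 ± 0.80 against 29.3 ± 1.41 CPM (counts relative to library size, scaled by the TMM method) without overlap (SD, n = 3 each; log2 difference 0.20, SE 0.07, edgeR adjusted p = 0.0159). Gene-level counts cannot show a partial deletion. Directions are therefore those of the libraries labelled knockout relative to those labelled wild-type. Wild-type replicate 2 stood apart within its group, since the chi-square per degree of freedom of its counts against the other 2 was 2.28 to 2.30, where 1 is sampling noise and the other pairs within a group gave 1.56 to 1.71. Without that library all 7 called lectin genes were still called. All 9 macrophage markers were tested. They summed to 7035 to 7304 CPM in the libraries labelled knockout and 6845 to 7251 CPM in the others. The 8 connective tissue markers summed to a similar or higher level, 7020 to 7199 and 7503 to 8018 CPM in the same order. Of the macrophage markers 4 were higher in the libraries labelled knockout, by 0.78 (Adgre1), 0.65 (Mertk), 0.55 (Csf1r) and 0.20 (Fcgr1) on the log2 scale. The 3 lower ones were Lyz2 (-0.47), Cd14 (-0.18) and Cd68 (-0.09), and 2 were not called, where 40.9% of all tested genes were called. The call of Cd14 was lost (edgeR adjusted p = 0.345) when a larger spread between libraries was assumed, a biological coefficient of variation of 0.1 in place of the fitted 2.63%. Adgre1, Csf1r and Mertk passed at that spread, and Fcgr1, Lyz2 and Cd68 were not checked at it.

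In the libraries labelled knockout, Clec12a, Clec4e, Clec5a and Clec10a were higher and Clec7a, Clec4d and Clec2d were lower than in those labelled wild-type, while Clec4n did not pass the test. The activating receptors thus moved both ways: Clec5a rose, Clec4d fell by more than any other lectin gene of the set, and Clec7a, the beta-glucan receptor, also fell. In all, 7 of the 8 genes passed an edgeR adjusted p of 0.05, 4 higher and 3 lower, where 40.9% of all tested genes passed (21.6% higher and 19.2% lower). The median log2 difference of the 8 genes was 0.10 and the median of its absolute size 0.41, against -0.0031 and 0.17 over all genes tested. For 7 of the 8 genes the groups were fully apart, every library of one above every library of the other, and this held for 47.8% of the genes tested. With a log2 difference of at least 0.3 in size required as well, 6 of the 8 passed, against 19.3% of the genes tested, and the value of Clec2d (-0.301) lay just past that limit. At that assumed spread of 0.1, 5 of the 8 passed, with 14.3% of all tested genes. In bulk RNA, fewer cells of a type and less RNA per cell cannot be told apart.

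**Figure D1:**
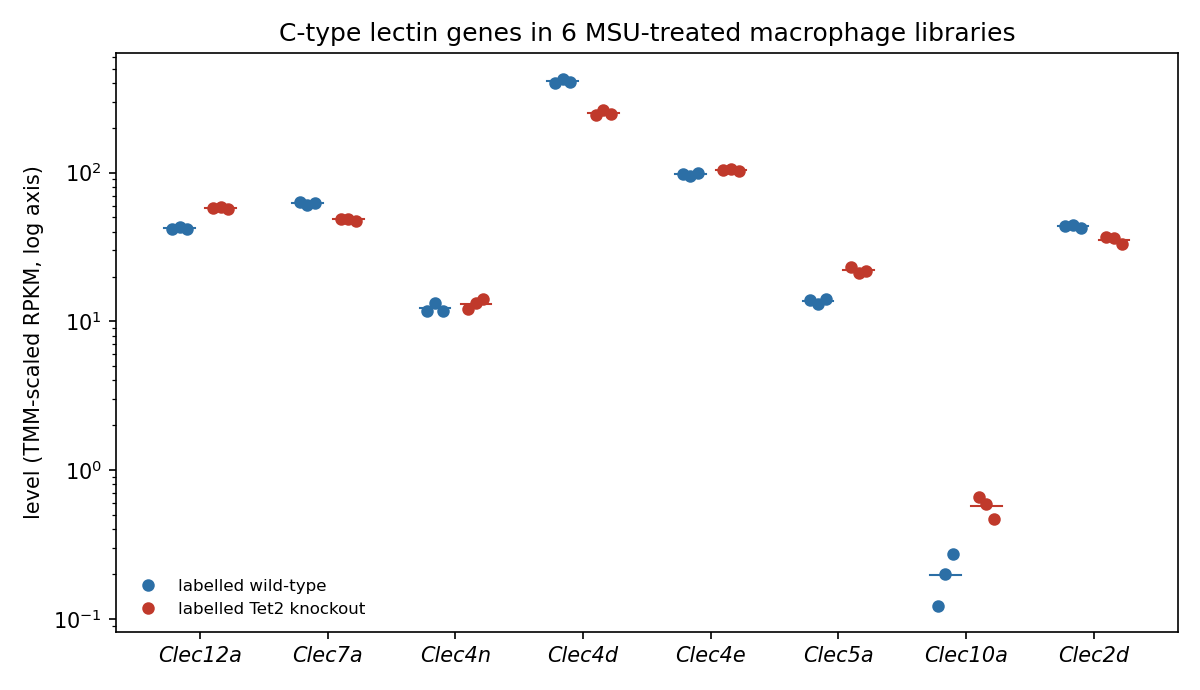
Level of each C-type lectin gene in each library, as TMM-scaled RPKM (CPM per kilobase of gene length) on a log axis, with 1 point per library and a line at the group mean, blue for libraries labelled wild-type and red for those labelled Tet2 knockout. Per length Clec4d was the highest gene in both groups and Clec10a the lowest, below 1 RPKM in all 6 libraries. In CPM, Clec4e was above Clec4d in the libraries labelled Tet2 knockout.

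Markers of other cells that carry these lectins were low in the same libraries. Neutrophil markers summed to 5.22 to 6.18 CPM in the libraries labelled knockout against 4.21 to 5.61 CPM in the other group, with Ly6g and Retnlg at 0 counts in all 6 and neither of the 2 tested members (Mmp8 and S100a8) called. Monocyte markers summed to 6.81 to 8.28 and 6.98 to 8.83 CPM, with Ccr2 and Plac8 tested and neither called. Dendritic cell markers summed to 5.54 to 7.03 and 3.34 to 4.96 CPM, with Cd209a and Siglech at 0, Xcr1 called higher (3.60 against 1.71 CPM) and Zbtb46 not called. Of the T cell list only Cd4 was tested and it was higher (11.8 against 3.48 CPM), while Cd3d was at 0. Mast cell and basophil markers summed to 2.27 to 2.88 CPM over both groups (Kit tested and not called, Fcer1a at 0), B cell and NK cell markers stayed below 0.5 CPM, and the 3 erythroid markers were at 0. Connective tissue markers were abundant and lower in the libraries labelled knockout, 7020 to 7199 against 7503 to 8018 CPM. Col3a1 was called higher (log2 difference 0.11), and Col1a1 (-0.11), Col1a2 (-0.09), Acta2 (-0.53) and Postn (-0.40) were called lower. The other 3 of 8 were not called, where 40.9% of all tested genes were called and 19.2% were lower. The calls of Col1a1 and Col3a1 were lost at the assumed spread of 0.1 (edgeR adjusted p = 0.609 and 0.606), and that of Col1a1 also with limma-voom (adjusted p = 0.0936). Acta2 and Postn passed at the assumed spread, and Col1a2 was not checked at it. The part of these markers in the lectin differences was not tested.

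Clec12a (ENSMUSG00000053063, chromosome 6, positions 129342691 to 129365303, plus strand) stood at 318, 324 and 317 CPM in knockout replicates 1, 2 and 3 and at 232, 239 and 229.7 CPM in wild-type replicates 1, 2 and 3. Every library labelled knockout lay above every library labelled wild-type, and the gap between the groups was many times the spread within them. The level rose 1.37-fold, from 233 ± 4.58 to 319 ± 4.04 CPM (SD, n = 3 each), which is 0.45 on the log2 scale with an SE of 0.03 and a 95% interval of 0.39 to 0.51 (edgeR adjusted p = 1.23e-26). A larger absolute log2 difference was seen in 14.2% of all tested genes. Under the 15 other settings tried the log2 difference of Clec12a lay between 0.43 and 0.46 and always passed, with the largest adjusted p, 0.00236, at the assumed spread of 0.1.

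Clec7a (ENSMUSG00000079293, chromosome 6, positions 129461591 to 129472779, minus strand) is the receptor for fungal beta-glucan and is listed in the table as a polymorphic pseudogene, although GENCODE M21 also gives it protein-coding transcripts. It stood at 129, 129 and 125 CPM in knockout replicates 1, 2 and 3 and at 168, 159 and 164 CPM in wild-type replicates 1, 2 and 3. The groups did not overlap. Clec7a fell by 0.36 on the log2 scale (SE 0.04, edgeR adjusted p = 3.34e-15), so the inhibitory urate receptor and the best known activating lectin of macrophages moved in opposite directions.

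Among the lectins that signal through the adaptor Fcer1g, Clec4d changed most. Clec4d (ENSMUSG00000030144, positions 123262111 to 123275265, plus strand), which pairs with Clec4e and binds mycobacterial cord factor, stood at 393, 419 and 397 CPM in knockout replicates 1, 2 and 3 and at 643, 678 and 653 CPM in the wild-type replicates. The groups lay far apart, and the gene fell by 0.71 on the log2 scale (SE 0.03, edgeR adjusted p = 1.59e-45). Clec4e (ENSMUSG00000030142, positions 123281789 to 123289870, minus strand), the receptor for cord factor and for a nuclear protein released by dead cells, stood at 518, 524 and 509 CPM against 485, 470.2 and 493 CPM. The groups did not overlap but lay close together, 0.10 apart on the log2 scale (SE 0.03, edgeR adjusted p = 0.00134), and the call was lost at the assumed spread of 0.1 (edgeR adjusted p = 0.667). Clec4n (ENSMUSG00000023349, positions 123229843 to 123247021, plus strand), a receptor for fungal mannans, stood at 17.1, 19.0 and 20.0 CPM against 16.8, 18.9 and 16.7 CPM. The groups overlapped, and the log2 difference of 0.10 (SE 0.09, 95% interval -0.08 to 0.28, edgeR adjusted p = 0.402) did not pass under any of the 15 other settings. At 229 to 267 reads per library, a log2 difference of Clec4n as large as that of Clec12a lies outside this interval.

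Clec5a (ENSMUSG00000029915, chromosome 6, positions 40574894 to 40585821, minus strand), which signals through Tyrobp and Hcst and is known as a receptor for dengue virus, had the largest rise of the activating members. It stood at 89.3, 81.3 and 83.6 CPM in knockout replicates 1, 2 and 3 and at 53.7, 50.2 and 54.2 CPM in the wild-type replicates. The groups did not overlap, and the level rose 1.61-fold (log2 difference 0.68, SE 0.05, edgeR adjusted p = 2.67e-23). Across the 15 other settings the log2 difference lay between 0.64 and 0.71.

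Clec10a and Clec2d belong to neither side of that comparison. Clec10a (ENSMUSG00000000318, chromosome 11, positions 70156197 to 70170834, plus strand), a receptor for galactose and N-acetylgalactosamine on macrophages and dendritic cells, had only 27, 24 and 18 reads in knockout replicates 1, 2 and 3 and 5, 7 and 11 reads in the wild-type replicates. These counts correspond to 1.89, 1.70 and 1.36 CPM against 0.355, 0.578 and 0.791 CPM, without overlap. The log2 difference of 1.52 was the largest of the set and the least precise (SE 0.38, 95% interval 0.78 to 2.29, edgeR adjusted p = 0.000509), and counting error alone is large at this depth. Its close paralog Mgl2, with which it could share reads, had 2 reads in knockout replicate 3 and 0 in the other 5 libraries. Clec2d (ENSMUSG00000030157, chromosome 6, positions 129180615 to 129186534, plus strand), a ligand that engages the inhibitory receptor Klrb1b of NK cells, stood at 44.4, 44.3 and 40.03 CPM against 53.1, 54.3 and 51.5 CPM. Its groups did not overlap and it fell by 0.30 on the log2 scale (SE 0.06, edgeR adjusted p = 6.79e-06), a call lost at the assumed spread of 0.1 (edgeR adjusted p = 0.0934). Klrb1b had no read in any library, a count of 0 that allows up to 0.2501 CPM in the shallowest (3 counts).

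**Figure D2:**
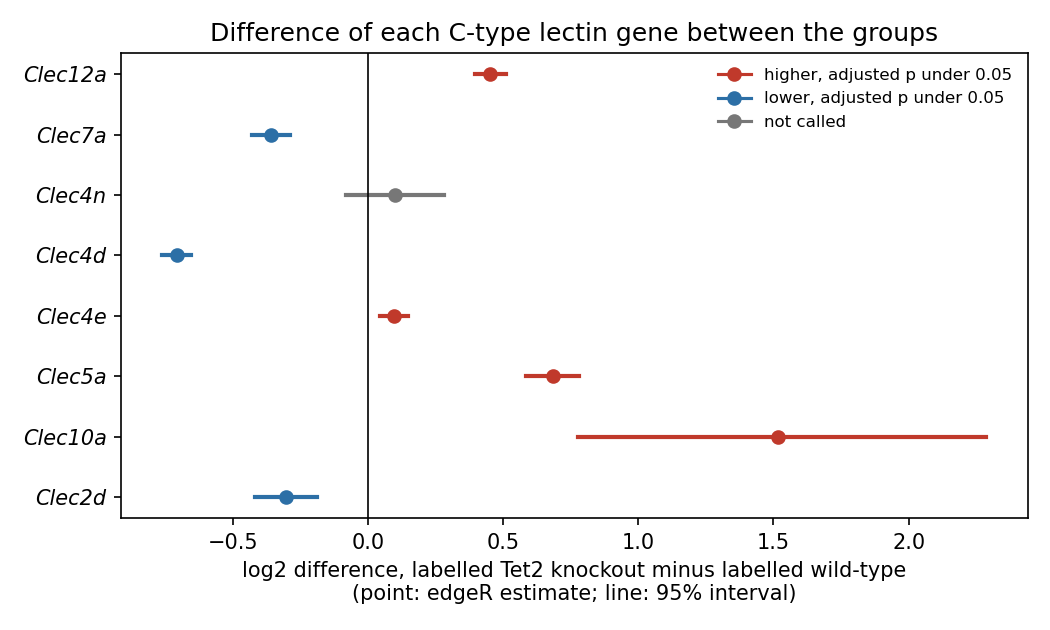
Log2 difference of each C-type lectin gene, libraries labelled Tet2 knockout minus those labelled wild-type, with points for the edgeR estimate and lines for its 95% interval, red for called higher, blue for called lower and grey for not called. Clec12a (0.45) and Clec7a (-0.36) lie on opposite sides of 0, Clec4d is farthest to the left (-0.71), and the interval of Clec4n spans 0.

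Levels of different genes were compared per length, as RPKM. In the libraries labelled wild-type the order from high to low was Clec4d (412 ± 11.1 RPKM, SD, n = 3), Clec4e (97.3 ± 2.38), Clec7a (62.0 ± 1.72), Clec2d (43.7 ± 1.16), Clec12a (42.2 ± 0.83), Clec5a (13.7 ± 0.58), Clec4n (12.3 ± 0.88) and Clec10a (0.198 ± 0.075). The ranges over the 3 wild-type libraries overlapped between Clec2d and Clec12a and between Clec5a and Clec4n. Within each of these libraries, however, Clec12a was slightly below Clec2d, at 0.960, 0.964 and 0.979 times its RPKM. In the libraries labelled knockout the order was Clec4d (252 ± 8.89 RPKM, SD, n = 3), Clec4e (104 ± 1.55), Clec12a (57.8 ± 0.73), Clec7a (48.4 ± 0.80), Clec2d (35.4 ± 2.05), Clec5a (22.1 ± 1.06), Clec4n (13.2 ± 1.02) and Clec10a (0.571 ± 0.093), and the libraries of no neighbours in that order overlapped. This order turns on the deposited gene lengths (5528 bases for Clec12a and 2638 for Clec7a). Per length Clec12a lay below Clec7a in the libraries labelled wild-type and above it in the other group. In CPM, which is not divided by length, Clec12a was above Clec7a in all 6 libraries. Likewise, in CPM Clec4e (4965 bases) was above Clec4d (1599 bases) in the libraries labelled knockout, at 517 against 403. In those labelled wild-type Clec4e was below Clec4d, at 483 against 658 CPM.

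Within each library, Clec12a was 1.1751, 1.2004 and 1.2067 times the RPKM of Clec7a in knockout replicates 1, 2 and 3 and 0.6602, 0.7167 and 0.6680 times it in the wild-type replicates. The ratio was higher in every library labelled knockout than in every library labelled wild-type, which does not depend on the lengths, while the side of 1 on which it lay does. Set against the mean log2 RPKM of the 5 activating lectins (Clec7a, Clec4d, Clec4e, Clec4n and Clec5a), Clec12a stood at 0.16 ± 0.01 where the label was knockout and at -0.33 ± 0.03 where it was wild-type (log2, SD, n = 3 each), a difference of 0.49 given here without a test. The difference did not hold against each activating lectin alone: relative to Clec5a, Clec12a was lower in the libraries labelled knockout (2.62 ± 0.15 against 3.08 ± 0.19 times its RPKM). Clec12a itself differed by 0.45 on the log2 scale, so the mean of the 5, whose members moved both ways, differed little between the groups. The ratio of Clec4d to its partner Clec4e was 2.36, 2.49 and 2.42 in knockout replicates 1, 2 and 3 and 4.11, 4.48 and 4.11 in wild-type replicates 1, 2 and 3. Of the summed RPKM of the 8 genes, Clec4d made up 47.2 ± 0.75% in the libraries labelled knockout against 60.3 ± 0.81% in the others, and Clec12a 10.8 ± 0.10% against 6.18 ± 0.07% (SD, n = 3 each). The sum itself was 533 ± 11.7 against 683 ± 9.27 RPKM, lower in all 3 libraries labelled knockout.

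**Figure D3:**
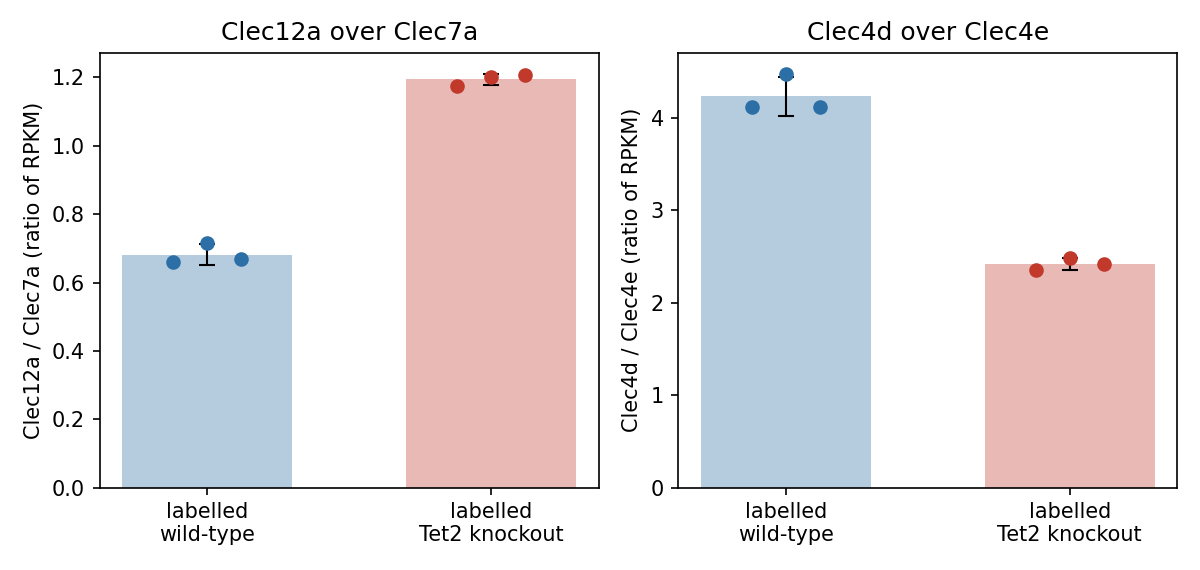
Ratio of RPKM within each library for Clec12a over Clec7a (left) and Clec4d over Clec4e (right), with bars for the group mean, error bars for the SD of 3 libraries and 1 point per library. The Clec12a to Clec7a ratio is higher in the libraries labelled Tet2 knockout (its side of 1 depends on the gene lengths used), and the Clec4d to Clec4e ratio is lower in the libraries labelled Tet2 knockout.

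Of the 8 genes, 7 lie on chromosome 6 and Clec10a on chromosome 11, and no gene in the table overlaps any of them. Clec4n, Clec4d and Clec4e lie within 60.0 kb, and Clec4d and Clec4e point at each other with 6.52 kb between their ends. These neighbours did not move together: Clec4n was not called, Clec4d fell and Clec4e rose slightly. Clec2d, Clec12a and Clec7a lie in a stretch of 292 kb inside the NK gene complex, with Clec12a the only gene of the 3 that was higher. Of 13 tested genes within 1 Mb of Clec12a, other members included, 2 were higher and 5 lower, with a median log2 difference of -0.11. Of 17 tested genes within 1 Mb of Clec4d, 9 were higher and 2 lower, with a median of 0.11. Over all tested genes 21.6% were higher and 19.2% lower.

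The promoters of the genes that moved most or beside each other are shown as the bases just before the RefSeq transcription start, since the pair Clec4d and Clec4e changed differently although they are neighbours. RefSeq windows (build GRCm38.p6) were matched for 6 of the 8 genes, not for Clec4n and Clec10a. The window of Clec12a is not printed because it lies inside an exon of its GENCODE transcript, which starts farther upstream, and Clec5a is printed without the 16 bases nearest its start for the same reason. Capitals mark matches on either strand to the core letters GAGGAA of PU.1, the factor that specifies macrophages, and to TTNNGNAA of C/EBP factors.
Clec4d, chr6:123261857-123262106, plus strand: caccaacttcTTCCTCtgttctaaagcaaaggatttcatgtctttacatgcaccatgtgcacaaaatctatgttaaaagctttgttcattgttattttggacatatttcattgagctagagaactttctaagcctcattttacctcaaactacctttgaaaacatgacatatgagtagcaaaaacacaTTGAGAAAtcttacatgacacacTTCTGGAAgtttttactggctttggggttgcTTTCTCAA
Clec4e, chr6:123289872-123290121, minus strand: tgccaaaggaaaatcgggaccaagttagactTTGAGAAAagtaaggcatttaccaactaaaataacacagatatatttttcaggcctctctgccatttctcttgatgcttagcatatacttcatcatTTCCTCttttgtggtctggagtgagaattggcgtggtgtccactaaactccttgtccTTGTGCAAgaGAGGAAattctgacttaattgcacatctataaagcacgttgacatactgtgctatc
Clec5a, chr6:40585822-40586055, minus strand: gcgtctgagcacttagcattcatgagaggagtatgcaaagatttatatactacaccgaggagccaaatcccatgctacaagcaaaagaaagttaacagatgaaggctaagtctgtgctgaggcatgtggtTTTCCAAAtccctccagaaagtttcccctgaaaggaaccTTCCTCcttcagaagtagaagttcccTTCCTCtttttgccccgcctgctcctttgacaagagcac
Clec7a, chr6:129472786-129473035, minus strand: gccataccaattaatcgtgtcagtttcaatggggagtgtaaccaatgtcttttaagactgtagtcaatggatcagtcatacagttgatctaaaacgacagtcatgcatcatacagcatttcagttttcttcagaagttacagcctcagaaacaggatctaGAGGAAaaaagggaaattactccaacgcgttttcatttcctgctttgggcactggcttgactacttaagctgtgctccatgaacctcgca

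GAGGAA was found once in the window of Clec4d, 2 times in that of Clec4e, 2 times in that of Clec5a and once in that of Clec7a. It was present in 23.3% of all 32851 RefSeq windows of 250 bases. TTNNGNAA occurred 3 times before Clec4d, 2 times before Clec4e, once before Clec5a and in no place before Clec7a, and in 36.8% of all windows. The windows of these 4 genes held no GGGNNNTCC (NF-kappaB), no TGANTCA (AP-1) and no GAAANNGAA (interferon response element), which 15.2%, 6.75% and 7.13% of all windows held, whereas the Clec2d window held GAAANNGAA once. The Clec12a window, which is exon sequence in GENCODE, held TGANTCA once, GAGGAA 2 times and TTNNGNAA 3 times, counting 1 place that matches on both strands as 2. No difference between the higher and the lower genes was tested on so few windows, and a missing match says only that these letters are not in the window.

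Of the 3 adaptor genes 1 was higher and 2 were not called. Of the 3 phosphatase genes 2 were higher and 1 lower, where 21.6% and 19.2% of all tested genes were. Fcer1g, the adaptor of Clec4n, Clec4d and Clec4e, rose from 225 ± 8.17 to 331 ± 2.98 CPM (SD, n = 3 each; log2 difference 0.56, SE 0.03, edgeR adjusted p = 8.46e-33). Fcer1g therefore rose while its partner Clec4d fell. Tyrobp, the adaptor of Clec5a, stood at 299 ± 6.18 against 286 ± 5.90 CPM (log2 difference 0.07, edgeR adjusted p = 0.0601) and passed without knockout replicate 3 (0.0417) or wild-type replicate 2 (0.0177). Hcst, which also couples to Clec5a, was low (3.88 against 3.05 CPM) and was not called. On the inhibitory side, Ptpn6, the SHP-1 phosphatase that Clec12a recruits, rose from 211 ± 7.79 to 323 ± 5.99 CPM (log2 difference 0.62, SE 0.03, edgeR adjusted p = 1.30e-35). Ptpn11, the SHP-2 phosphatase, fell by 0.13 on the log2 scale (edgeR adjusted p = 0.000440), a call lost at the assumed spread of 0.1 (0.531). Inpp5d, a lipid phosphatase recruited by other inhibitory receptors, rose by 0.48 (edgeR adjusted p = 5.82e-23).

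In the Syk and Card9 pathway 13 of 18 tested genes were higher and 1, the ubiquitin ligase gene Cbl, was lower, beside 21.6% and 19.2% over all tested genes. The sizes were mostly small, with a median log2 difference of 0.19, where the median absolute size over all tested genes was 0.17. Among the 13, Malt1 (0.11), Lyn (0.14), Vav1 (0.18), Btk (0.18) and Fyn (0.20) rose least. Syk rose from 767 ± 4.26 to 926 ± 7.47 CPM (log2 difference 0.27), although not at the assumed spread of 0.1 (edgeR adjusted p = 0.110). Plcg2, the phospholipase below Syk, rose by 0.39, Prkcd, the kinase that phosphorylates Card9, by 0.35, and the kinase Src, which phosphorylates such receptor tyrosines, by 0.41 on the log2 scale, with edgeR adjusted p-values of 6.63e-16, 1.12e-19 and 3.70e-14. At the assumed spread of 0.1, Plcg2, Prkcd and Src still passed (edgeR adjusted p = 0.0140, 0.0281 and 0.00876). Apart from these and Syk, the genes of this list were not checked at that spread, so the count of 13 is that of the main fit. The 4 that were not called in the main fit were Bcl10, Vav3, Trim62 and Cblb. Of 13 tested genes known to be induced through Syk and Card9, 3 were higher (Il1b, Il12b and Ccl4) and 4 lower (Il6, Cxcl1, Cxcl2 and Egr2). Over all tested genes 21.6% were higher and 19.2% lower. The 6 not called were Tnf, Il10, Ccl3, Ptgs2, Egr3 and Nfkbiz. Egr2, a factor induced through Clec7a, fell by 0.67 on the log2 scale from 24.2 ± 2.01 to 15.3 ± 0.78 CPM (edgeR adjusted p = 2.50e-10). Egr3 did not follow it, at 2.02 against 1.98 CPM (log2 difference 0.04, edgeR adjusted p = 0.930). Cxcl2, a neutrophil attractant, fell by 0.34 (edgeR adjusted p = 2.48e-11). Il12b rose by 1.09 from a low level, 3.47 to 7.44 CPM (edgeR adjusted p = 3.29e-08). Ccl4 rose by 0.37 (edgeR adjusted p = 8.61e-11) and Il1b by 0.32 (edgeR adjusted p = 6.01e-10), the latter not at the assumed spread of 0.1 (edgeR adjusted p = 0.0594).

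**Figure D4:**
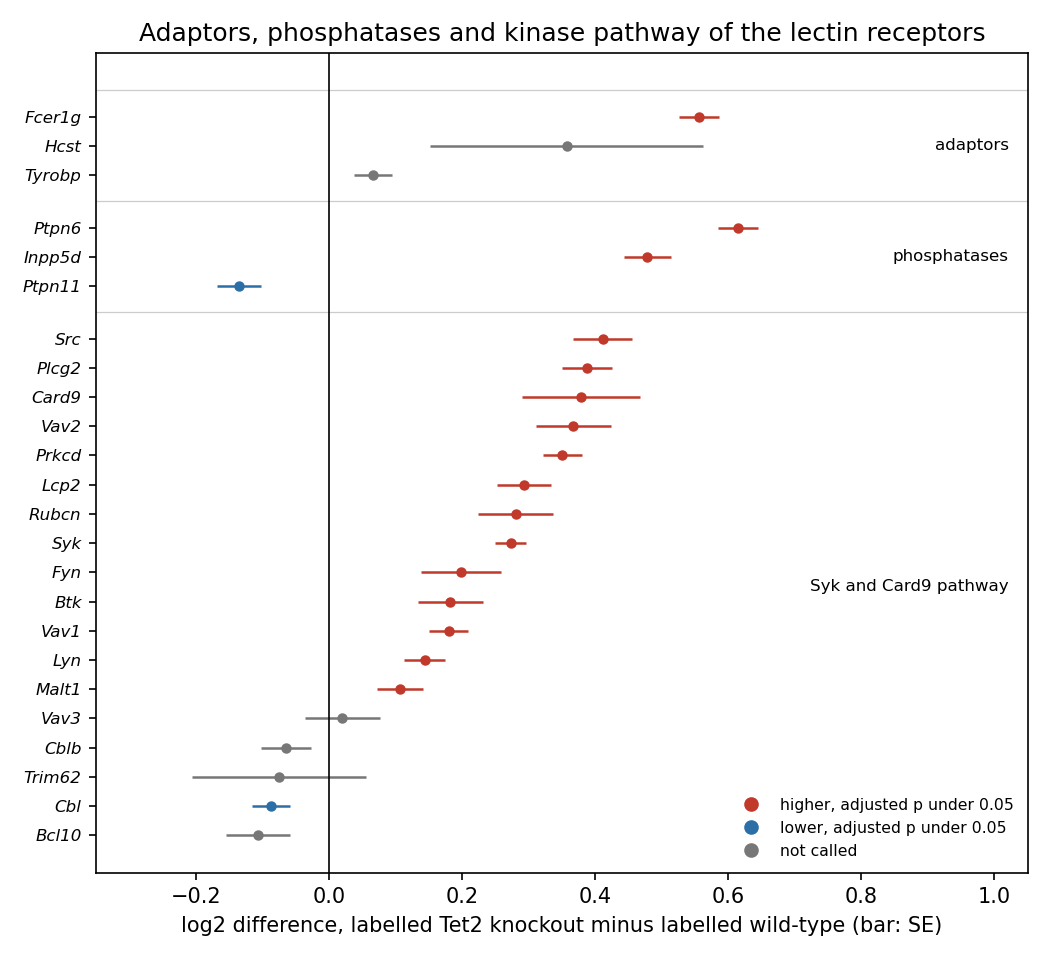
Log2 difference of the adaptors, the phosphatases and the genes of the Syk and Card9 pathway, libraries labelled Tet2 knockout minus those labelled wild-type, with bars for the SE of the edgeR estimate, red for called higher, blue for called lower and grey for not called. In the pathway 13 of 18 genes lie to the right of 0 and were called higher, and Ptpn6 (0.62) and Fcer1g (0.56) are the highest of their lists.

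The list of 44 other C-type lectin genes was drawn up by symbol, without a check for a lectin domain, and includes the pseudogenes Clec2j and Clec2f. Only 12 of the 44 were expressed enough to be tested, and 16 had no read in any library. Of the 12, 6 were higher and 2 lower, where 21.6% and 19.2% of all tested genes were. Mrc1, the mannose receptor of alternatively activated macrophages, rose from 112 ± 5.74 to 234 ± 3.03 CPM (edgeR adjusted p = 6.87e-50), and Cd69, an early activation marker whose gene lies between Clec2d and Clec12a, by 0.66 on the log2 scale (edgeR adjusted p = 4.55e-13). Clec4a3, a relative of Clec4n in the neighbouring stretch of chromosome 6, rose by 0.47 (edgeR adjusted p = 0.00141). Olr1, the receptor for oxidised LDL next to Clec7a, fell by 1.09 on the log2 scale from 14.0 ± 0.15 to 6.59 ± 1.11 CPM (edgeR adjusted p = 3.16e-13), in the same direction as Clec7a. Colec12, a scavenger receptor with a lectin domain, was the other that fell, and Clec4a1, Clec16a and Ly75 were also higher.

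The 5 protein-coding genes whose levels across the 6 libraries followed Clec12a most closely were Kcnn4, a calcium-activated potassium channel, Cyfip1, a regulator of actin assembly, Fabp4, a fatty acid-binding protein of macrophages, Ifi205, an interferon-induced gene with close paralogs, and Vipas39. Their log2 levels, each centred on its own mean, differed from those of Clec12a by a root-mean-square of 0.015 to 0.020 over 6 libraries, among 11155 genes compared. With 2 groups of libraries this measure mostly reflects genes whose log2 difference is near that of Clec12a, and theirs lay between 0.44 and 0.47.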

How the data were processed

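The authors deposited raw counts for each gene, beside its symbol, mm10 coordinates and length. The submitters' processing notes name fastp, STAR, featureCounts and mm10, without versions, and no source used here gives the strand setting. Counts were fitted in R 4.3.3 with edgeR 4.0.16: filterByExpr (minimum count 10), TMM scaling, a robust quasi-likelihood test with the genotype label as the only term, and Benjamini-Hochberg adjustment over all 13175 genes tested, with a threshold of 0.05. RPKM is TMM-scaled CPM per kilobase of the deposited gene length. An exact permutation test of 3 against 3 libraries cannot go below p = 0.1, so it was not used. DESeq2 1.42.0, limma-voom (limma 3.58.1) and other scalings, filters and spreads served as alternatives. The script was tested on simulated counts. The members, lists and tests were chosen with earlier results of these data known. All members were named, with up to 4 called genes of each list by smallest p, all adaptors and phosphatases, and 5 genes nearest to Clec12a. A few genes of these lists are not reported here and were left out of their counts. Further genes of the lists were named after their values were seen. Figures were drawn with matplotlib 3.10.9.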

Additional observations from a re-analysis of the deposited data

How the results depend on the processing

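The count of 7 called lectin genes held with RLE and upper-quartile scaling, DESeq2, limma-voom, both other filters and each library left out (7 in each case). It was 6 with protein-coding genes only, where Clec7a is not tested, and 5 with the assumed spread of 0.1, where 1885 of all tested genes were called in place of 5385. Without each library in turn, the Clec12a difference lay between 0.44 and 0.46 and its difference from the mean of the 5 activating lectins between 0.48 and 0.50. Set against Clec7a alone, the latter was 0.81. Replicate numbers did not pair the samples, since deviations of same-numbered libraries correlated with r from -0.021 to 0.0036 and 1 of 6 libraries correlated best with its own number. With a replicate block 7 lectin genes were called and the Clec12a difference was 0.45 (edgeR adjusted p = 1.39e-15). Of 493 values of 33 named genes from the lists, 475 kept direction and call, and those that changed direction were uncalled markers without 1 library: Mmp8 (-0.15 to 0.17), S100a8 (-0.25 to 0.058), Plac8 (-0.091 to 0.044) and Ccr2 (-0.49 to 0.035). The cause of these changes was not tested. Depth limits Clec10a most.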
